A study of Mus musculus with 12 samples.

Results

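Levels of RNA in the adult cerebellum were compared with those in the adult hippocampus of WT mice on one-colour Agilent arrays. The comparison used the 6 arrays of the En2WT genotype, 3 of entire cerebellum and 3 of entire hippocampus, out of 12 arrays in the series. The WT animals were littermates of *En2*-/- mice, 3 to 5 months old, from a line made on a mixed 129Sv and C57BL/6 and outbred background and crossed repeatedly into C57BL/6. The remaining 6 arrays came from *En2*-/- mice and were not compared here. The labels do not say whether a cerebellum and a hippocampus of one number came from one mouse.

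The cerebellum is a hindbrain structure with few neuron types in very unequal numbers: tiny granule neurons send parallel fibres to the large GABAergic Purkinje cells, the sole output of its cortex. The hippocampus belongs to the telencephalon, and its excitatory pyramidal neurons of the CA fields and granule neurons of the dentate gyrus are known for synaptic plasticity in learning and memory. Position along the neural tube is laid down in the embryo by transcription factors, many of which stay on in the adult neurons of a region. In bulk tissue, fewer cells of a type and less RNA per cell cannot be told apart.

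On each array, brightness of a spot measures how much labelled RNA bound to one probe, and values are given as log2 intensity after quantile normalization over the 6 arrays, so that a difference of 1 is a 2-fold change. Each array had 43379 spots, and 68.1% to 73.0% of those on a cerebellum array and 63.1% to 67.0% of those on a hippocampus array were well above background, and none was saturated. Across genes, the correlation was 0.973 to 0.992 between cerebellum arrays, 0.982 to 0.986 between hippocampus arrays and 0.904 to 0.928 between tissues. Precision is set by the small number of arrays. The long noncoding RNA *Xist* was well above background on all 6 arrays (log2 intensity 12.07 to 13.43), while the Y-linked genes *Ddx3y*, *Eif2s3y*, *Kdm5d* and *Uty* were not well above background on any. The study's methods speak of mice of both sexes. Each slide carried 1 WT array of each tissue, always at the same 2 positions, so position on the slide and tissue cannot be told apart.

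Expression differed between the tissues over a wide part of the transcriptome. By limma with Benjamini-Hochberg adjusted p under 0.05, 4366 of 15669 genes tested were called (27.9%), 2319 higher in the cerebellum (14.8%) and 2047 higher in the hippocampus (13.1%). A difference of at least 2-fold was called for 1547 genes toward the cerebellum (9.87%) and 1526 toward the hippocampus (9.74%), and one of at least 16-fold for 109 and 103. The median difference over all genes tested was 0.07, cerebellum minus hippocampus, and the median size of a called difference was 1.28, against a median SD between arrays of one tissue of 0.27 in the cerebellum and 0.26 in the hippocampus. In 4339 of the 4366 called genes the 3 cerebellum values did not overlap the 3 hippocampus values. Of the 4320 called genes with a value on every array, 4307 differed in the same direction on all 3 slides. Both counts largely follow from the calls, which rest on the same arrays, and add no support to them. With the authors' own log2 values, which they normalized within each tissue, 5311 genes were called and 77.6% of them were higher in the cerebellum, against 53.1% here. There the median of all genes lay at 0.31, so small differences depend on the scaling.

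**Figure D1:**
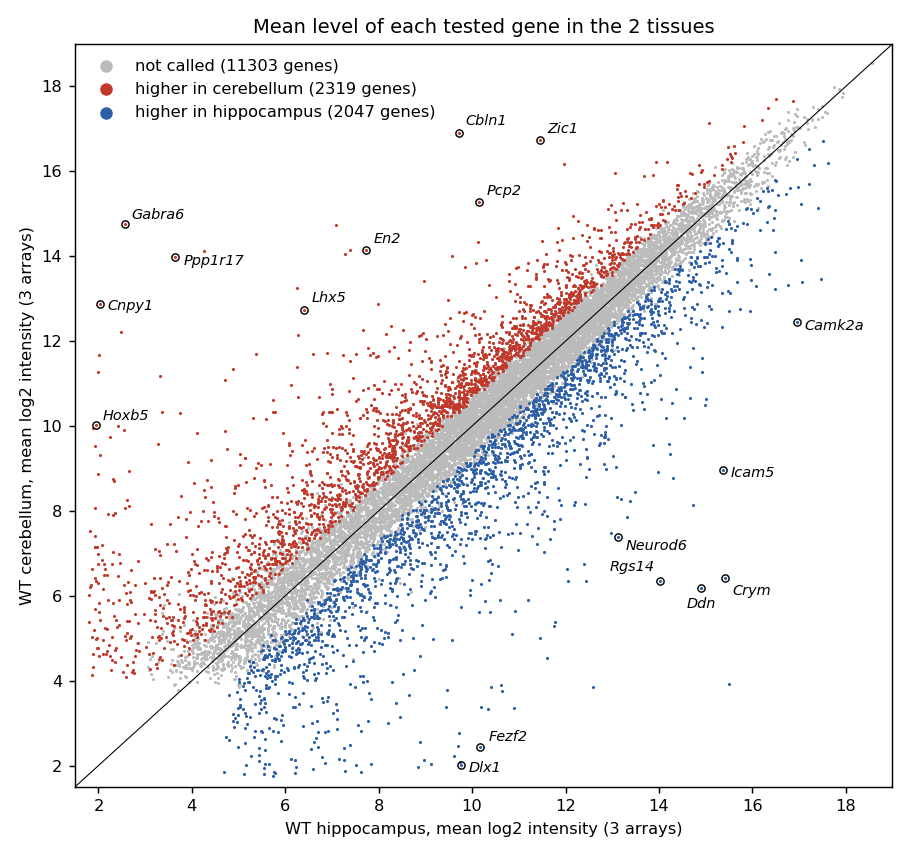
Mean log2 intensity of each of 15669 genes in 3 WT hippocampus arrays (horizontal axis) and 3 WT cerebellum arrays (vertical axis), with equality on the diagonal. The 2319 genes called higher in the cerebellum lie above the band of genes not called and the 2047 called higher in the hippocampus below it, and *Gabra6* (above) and *Crym* (below) stand farthest from the diagonal among the genes labelled.

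The label of each tissue was checked first with 4 genes of the cerebellum. *Gabra6*, the alpha 6 subunit of the GABA-A receptor and a marker of cerebellar granule neurons (probe on chromosome 11, 42120087 to 42120146, mm9), had log2 intensities of 14.70, 14.67 and 14.91 in the cerebellum against 1.92, 1.94 and 3.83 in the hippocampus, where it was not well above background on any array. Its level was at least 1250-fold higher in the cerebellum (adjusted p = 7.93e-07). *Pcp2*, a modulator of G protein signalling in Purkinje cells (chromosome 8, 3623499 to 3623558), measured 15.24, 14.99 and 15.57 against 10.23, 10.53 and 9.68. All 3 cerebellum arrays were far above all 3 hippocampus arrays for both genes, by 34.7-fold for *Pcp2* (difference 5.12 ± 0.27, SE; adjusted p = 3.92e-06). A second *Pcp2* probe, also above background on all arrays, differed by 8.71. *Cbln1*, the granule neuron protein that bridges parallel fibres and Purkinje cell spines, reached 16.95, 16.61 and 17.16 against 9.13, 9.84 and 10.16, a 147-fold difference (7.20 ± 0.29). *En2*, the Engrailed homeobox factor of the midbrain and hindbrain, reached 14.05, 13.80 and 14.60 against 7.47, 8.03 and 7.68, which is 86.0-fold (6.43 ± 0.27). *En2* was well above background on every hippocampus array as well. Thus all 4 check genes were called higher on the arrays labelled cerebellum.

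The proximal promoters of a leading gene of each cerebellar neuron class and of the hippocampal factor *Neurod6* are shown because these genes had some of the widest differences between the tissues. Each is the 250 bases before the annotated start on the minus strand (RefSeq, GRCm38.p6), read 5′ to 3′, at chr11:42321073-42321322 for *Gabra6*, chr8:3625548-3625797 for *Pcp2* and chr6:55681264-55681513 for *Neurod6*. Capitals mark matches, on either strand, to the nuclear receptor half-site AGGTCA bound by factors such as Rora, the E-boxes CAGATG and CAGCTG bound by basic helix-loop-helix factors, or the cyclic AMP response element TGACGTCA.

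Gabra6: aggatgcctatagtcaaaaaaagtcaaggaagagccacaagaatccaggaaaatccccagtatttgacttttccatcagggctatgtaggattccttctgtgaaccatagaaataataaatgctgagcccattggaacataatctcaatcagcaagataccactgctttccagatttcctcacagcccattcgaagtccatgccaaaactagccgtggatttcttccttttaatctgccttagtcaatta
Pcp2: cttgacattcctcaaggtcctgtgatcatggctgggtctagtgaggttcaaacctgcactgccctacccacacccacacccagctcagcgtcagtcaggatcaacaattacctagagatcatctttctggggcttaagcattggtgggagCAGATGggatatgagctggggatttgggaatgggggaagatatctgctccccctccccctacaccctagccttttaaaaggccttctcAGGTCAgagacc

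Neurod6: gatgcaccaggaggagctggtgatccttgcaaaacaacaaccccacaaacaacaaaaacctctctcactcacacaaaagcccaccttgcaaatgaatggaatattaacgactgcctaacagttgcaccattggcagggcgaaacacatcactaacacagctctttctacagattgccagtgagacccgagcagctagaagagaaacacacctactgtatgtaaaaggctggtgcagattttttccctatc

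In the *Pcp2* window, AGGTCA begins 12 bases and CAGATG 100 bases before the start, and the other windows hold none of the 4 motifs. Among 27025 promoters of this length, AGGTCA was found in 13.8%, CAGATG in 14.5%, CAGCTG in 12.8% and TGACGTCA in 1.62%. For the called genes of at least 2-fold with a promoter in the reference, AGGTCA was present in 13.8% of 1116 higher in the cerebellum and 9.66% of 1149 higher in the hippocampus, against 10.8% of the 12059 tested genes. CAGATG was present in 13.7% and 12.5% against 10.5%, and TGACGTCA in 2.06% and 1.74% against 2.6%. CAGCTG, in 14.6% and 13.9%, was like CAGATG somewhat more frequent on both sides than among the tested genes (1444 of 12059). These shares are descriptions, and a match is not shown to be a binding site.

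Granule neuron genes were higher in the cerebellum nearly throughout their list. Of 15 markers, all tested, 14 were called higher in the cerebellum and none higher in the hippocampus, with a median difference of 2.93, or 2.39 with genes below background in the hippocampus set at their bound. Beside *Gabra6* and *Cbln1*, *Cbln3*, a partner of *Cbln1*, differed widely, at 11.67, 11.70 and 11.64 in the cerebellum against 1.92 to 2.10 in the hippocampus, at least 146-fold (adjusted p = 4.97e-08). Its 3 cerebellum values lay closest together among the leading genes of the list (SD 0.03). The giant cadherin *Fat2* differed by at least 4.80-fold, and the receptor subunits *Gabrd* (1.93 ± 0.23) and *Grin2c* (2.04 ± 0.22), which both occur in mature granule neurons, by less. *Neurod1* and *Pax6*, transcription factors of the granule lineage, were higher by 2.39 ± 0.29 and 2.75 ± 0.23. *Cadps2* was the member not called (0.66 ± 0.22), although its other probes differed by 2.09 and 3.11.

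*Zic1*, *Zic2*, *Zic4* and *Zic5*, zinc finger factors of the granule lineage, were called higher in the cerebellum. *Zic1* reached 16.57, 16.66 and 16.98 in the cerebellum against 11.90, 11.32 and 11.15 in the hippocampus, 38.9-fold. The difference was 3.36 ± 0.61 for *Zic2* and 3.12 ± 0.29 for *Zic4*, while *Zic5*, not well above background in the hippocampus, was at least 3.13-fold higher. *Zic2* had the least even hippocampus values of these genes, 7.31, 8.25 and 5.39, all below the cerebellum's lowest of 10.12.

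Most Purkinje cell genes followed the same direction. Of 15 markers tested, 14 were called higher in the cerebellum and 1 higher in the hippocampus, with a median of 4.20. *Ppp1r17*, a phosphatase inhibitor of Purkinje cells, was at 13.91, 13.67 and 14.31 against 3.13, 3.90 and 3.90, at least 719-fold higher. *Car8*, a carbonic anhydrase-related protein that binds the IP3 receptor, was at 13.25, 13.92 and 15.00 against 6.95, 7.53 and 7.36, or 110-fold. The LIM homeobox factors *Lhx1* and *Lhx5* differed by almost the same amount, 6.33 ± 0.22 each. The glutamate transporter *Slc1a6* differed by 4.20 ± 0.26. The calcium binding protein *Calb1* (2.04 ± 0.19) and the IP3 receptor *Itpr1* (1.09 ± 0.25), both also expressed in hippocampal neurons, differed less. *Skor2* was not tested.

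Among markers of other cerebellar neurons, 5 of 7 tested were called higher in the cerebellum. Of the 7, 3 were above background on all hippocampus arrays, and other processing gave 1 to 5 calls toward the cerebellum. *Slc6a5*, the glycine transporter of inhibitory neurons such as Golgi cells, stood at 11.43, 11.65 and 10.75 against 1.89 to 2.04, at least 112-fold. *Eomes*, the T-box factor of unipolar brush cells, was higher by 3.77 ± 0.28 and was well above background on 1 of 3 hippocampus arrays. *Grm2*, a metabotropic receptor of Golgi and unipolar brush cells that the dentate gyrus also expresses, was higher in the hippocampus, by 5.52-fold. *Kit* was not called (0.56 ± 0.20, adjusted p = 0.064).

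Transcription factors of the midbrain and hindbrain were above background on all cerebellum arrays in 7 of 16 cases, and for 4 of these 7 on all hippocampus arrays as well. Of the 7, which could be tested, 6 were called higher in the cerebellum, with a median of 4.10. Those tested only for their cerebellum signal could hardly be called the other way. Other processing gave 3 to 6 such calls and medians of 2.77 to 4.99. Beside *En2*, the Iroquois factor *Irx1* was at 12.26, 12.25 and 11.95 against 6.11, 6.00 and 6.74 (58.4-fold), and *Irx2* at 10.33, 10.38 and 10.28 against 3.52, 1.92 and 4.65, where 1 hippocampus array was above background. *Meis1* differed by 4.10 ± 0.27, *Irx5* by at least 4.38-fold and *Gbx2* by at least 3.07-fold. *Otx2*, a forebrain and midbrain factor that the choroid plexus keeps, was not called (-0.03 ± 0.33).

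Several genes with no place in those lists were among the 12 widest differences measured in both tissues or the 8 widest bounds. *Skor1*, a transcriptional corepressor related to *Skor2*, differed 108-fold, and *Cnpy1*, known from the midbrain-hindbrain boundary of the embryo, at least 337-fold. Its other probes differed by 9.37 and 1.40. *Mab21l1* was at least 56.8-fold higher in the cerebellum. *Svep1*, an extracellular matrix protein, differed 34.4-fold, and its other probes differed by 5.08, 2.87 and 2.41. Some names on this side belong to genes best known outside the brain. *Mybpc3*, a cardiac myosin binding protein, was at 12.94, 13.06 and 13.76 against 5.26, 6.29 and 7.20, and *Ptpn22*, a phosphatase of lymphocytes, at 11.07, 11.10 and 11.97 against 5.93, 6.59 and 6.24, each from 1 probe. *Smpx*, a small muscle protein, was at least 103-fold higher, also from 1 probe. *Il22*, a cytokine, was at 11.96, 12.01 and 12.65 against 1.74, 3.79 and 1.90, at least 212-fold, and its other probe differed by 9.26.

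**Figure D2:**
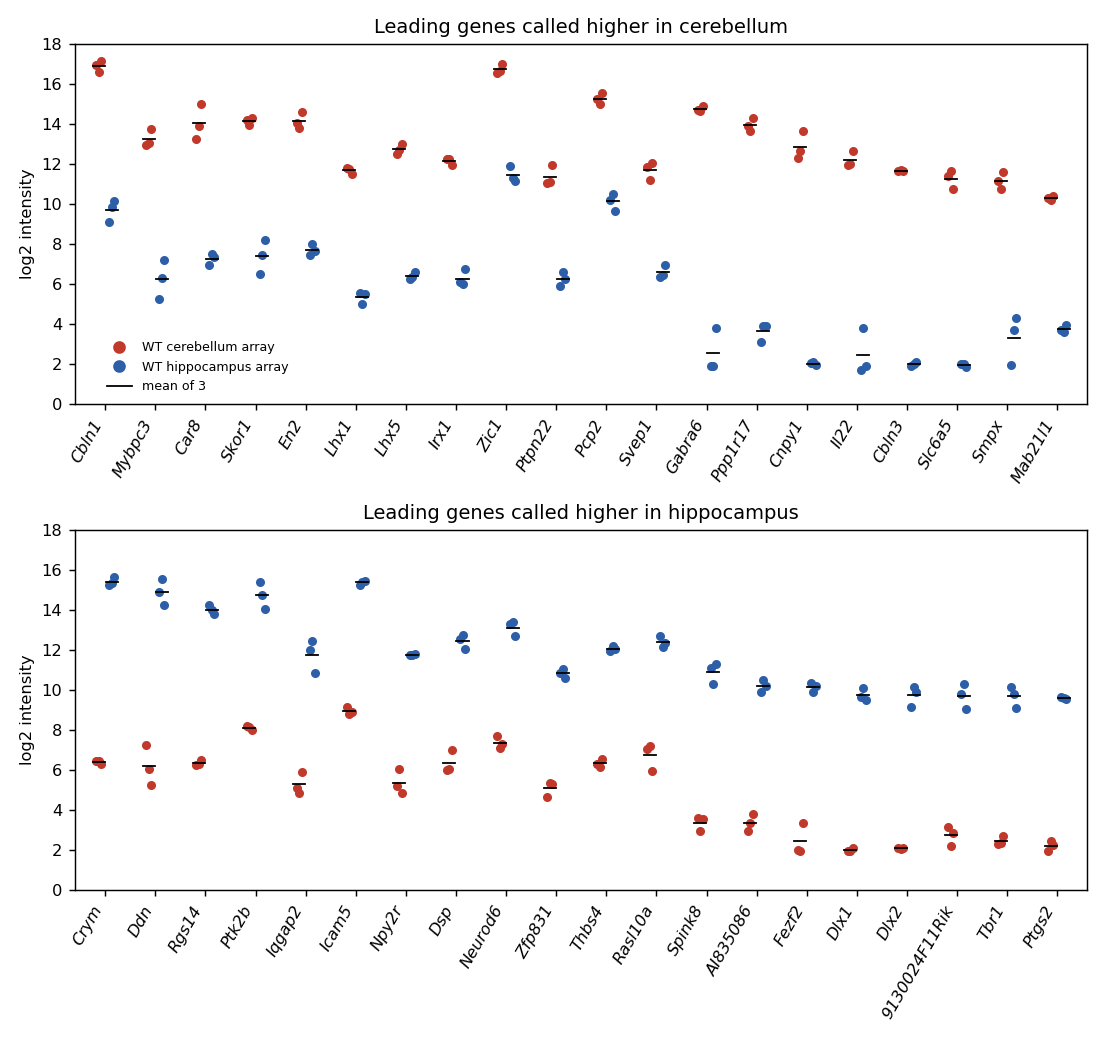
Log2 intensity of leading genes on each of the 6 WT arrays (points; black lines are means of 3), for genes called higher in the cerebellum above and in the hippocampus below. In every gene drawn the 3 arrays of one tissue lie apart from the 3 of the other, and *Gabra6* to *Mab21l1* and *Spink8* to *Ptgs2* are not well above background in the lower tissue.

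On the hippocampal side, the widest difference among genes well above background on every array was that of *Crym*, a thyroid hormone binding protein, at 15.25, 15.36 and 15.64 in the hippocampus and 6.46, 6.45 and 6.33 in the cerebellum, 514-fold (-9.01 ± 0.20, adjusted p = 8.93e-08). *Ddn*, dendrin of the postsynaptic density, was at 14.89, 15.55 and 14.25 against 7.27, 6.07 and 5.24, or 417-fold. Both genes kept their tissues apart on every array, although *Ddn* varied by 2 log2 units in the cerebellum. *Icam5*, the telencephalic adhesion molecule of dendrites, differed 85.3-fold, *Ptk2b*, a calcium-dependent tyrosine kinase, 97.7-fold and *Npy2r*, a receptor of neuropeptide Y, 84.5-fold. *Iqgap2*, a cytoskeletal scaffold, differed 88.6-fold, *Thbs4*, a synaptogenic matrix protein, 52.3-fold, and the small GTPase *Rasl10a* and the zinc finger gene *Zfp831* 50.5-fold and 53.6-fold. Of genes not well above background in the cerebellum, *Spink8*, a CA1 marker, had the widest bound, at least 151-fold, and *Ptgs2*, the inducible cyclooxygenase of forebrain excitatory neurons, was at least 62.0-fold higher, as its other probe also showed (-7.08). The little characterised genes *AI835086* and *9130024F11Rik* were at least 90.4-fold and 66.8-fold higher.

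Neuronal markers of the dentate gyrus and CA fields were called higher in the hippocampus in 16 of 18 cases tested, with a median of -2.61 and none called the other way. *Rgs14*, which limits plasticity in CA2 neurons, was at 14.25, 14.02 and 13.80 against 6.24, 6.29 and 6.49, 205-fold. *Dsp*, desmoplakin of dentate granule neurons, was at 12.54, 12.73 and 12.03 against 6.01, 6.05 and 6.99 (67.9-fold). The tissues did not overlap for either gene. *Lct*, another dentate marker, differed by -5.46 ± 0.19, *Fibcd1* of CA1 by -4.61 ± 0.48 with 2 of 3 cerebellum arrays above background, and *C1ql2* of mossy fibres by -3.87 ± 0.41. *Prox1*, which sets dentate granule neuron identity, was 2.42 lower on the log2 scale in the cerebellum (-2.42 ± 0.24). *Tdo2* and *Spock1* were not called.

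Factors of the embryonic telencephalon were mostly higher in the hippocampus. Of 20 tested, 17 were called higher in the hippocampus and none in the cerebellum, with a median of -5.12, or -4.90 with genes below background at their bound. Their count and median depend on how dim genes are treated, and with the authors' log2 values 7 were called and the median was -1.23. The homeobox factors *Dlx1* and *Dlx2* of forebrain interneurons, neighbours on chromosome 2 with probes at 71371499 and 71381553 (mm9), were at least 68.7-fold and 67.6-fold higher. *Fezf2* and *Tbr1*, factors of deep cortical projection neurons, were at least 90.4-fold and 65.5-fold higher. *Lhx6* (-6.89 ± 0.33), *Emx2* (-6.71 ± 0.51), *Bcl11b* (-4.92 ± 0.25) and *Lhx2* (-4.89 ± 0.20) differed widely too, although *Lhx6* and *Emx2* were above background on 2 of 3 cerebellum arrays. *Nr2f2* and *Zbtb18* were not called. A list of cerebral cortex markers shares *Fezf2*, *Tbr1* and *Mef2c*, among others, with the telencephalic one. Of its 8 genes tested, 5 were called higher in the hippocampus, while *Cux2* was higher in the cerebellum by 0.77 ± 0.19 (not called without cerebellum replicate 2). All 8 were above background on every hippocampus array and 5 on every cerebellum array. Other processing gave 1 to 5 calls toward the hippocampus and list medians of -1.70 to 0.08.

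**Figure D3:**
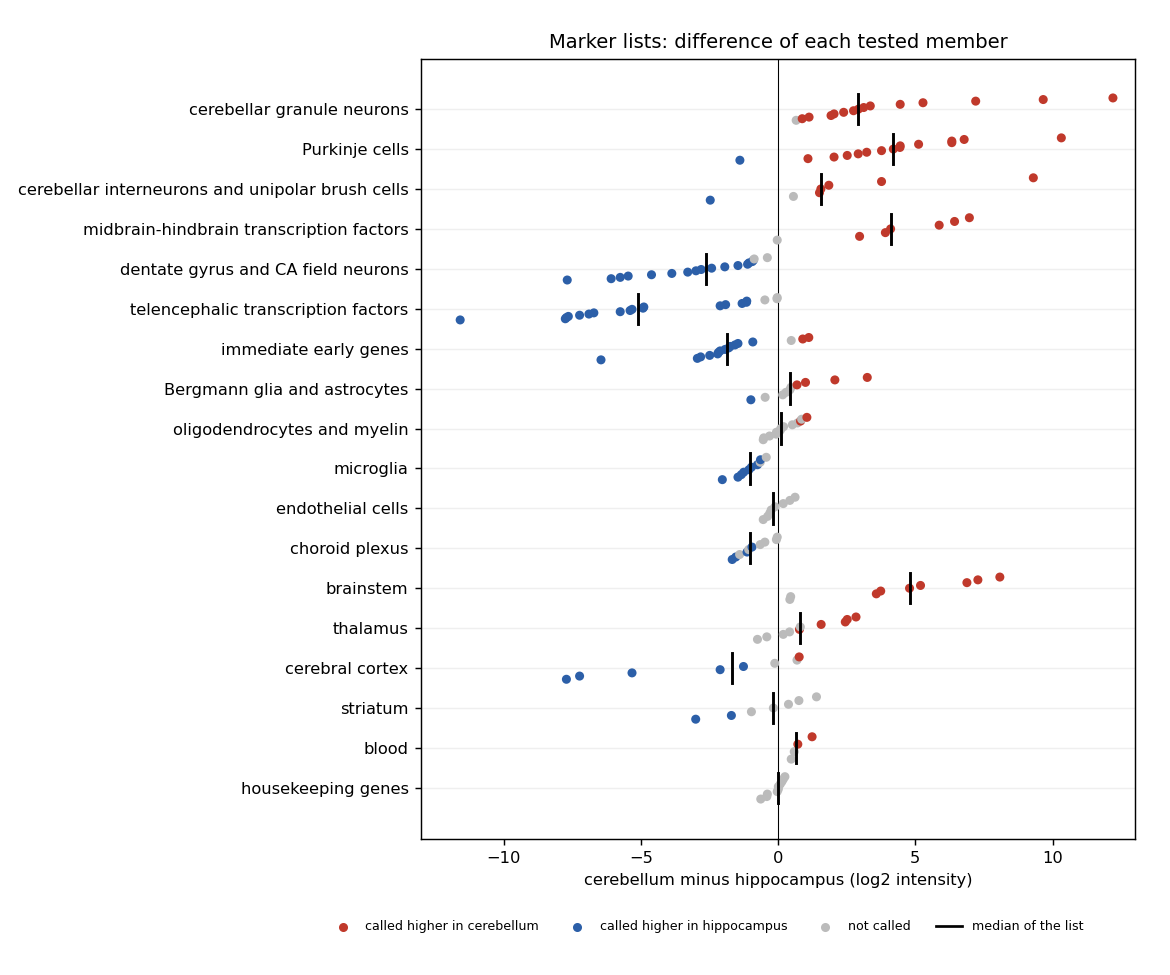
Difference of each tested member of 18 marker lists, cerebellum minus hippocampus on the log2 scale (points, coloured by the limma call; vertical bars are list medians). Granule and Purkinje lists lie to the right with medians of 2.93 and 4.20, dentate and telencephalic lists to the left with -2.61 and -5.12, and housekeeping genes around 0.01.

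Glial and vascular lists had median differences nearer to 0 than the neuronal lists above. *Gdf10*, a growth factor of Bergmann glia, was higher in the cerebellum at 12.23, 12.51 and 11.72 against 8.81, 9.05 and 8.82 (9.54-fold), as was the calcium binding protein *S100b* (2.07 ± 0.19). Of 10 genes of Bergmann glia and astrocytes, 4 were called higher in the cerebellum and 1 higher in the hippocampus. Toward the cerebellum 2 to 3 calls were left when single arrays were left out, since *Hopx* lost its call without any 1 array and the water channel *Aqp4* without cerebellum replicates 1 or 2. The hippocampal gene, the intermediate filament *Gfap* (-0.99 ± 0.28), lost its call when either of cerebellum replicates 1 and 3 or hippocampus replicates 1 and 3 was left out. The transporters *Slc1a2* and *Slc1a3* and the gap junction gene *Gja1* were not called. Microglial genes were higher in the hippocampus in 8 of 10 cases, with a median of -1.01. The purinergic receptor *P2ry12*, a homeostatic microglial marker, was between 9.91 and 10.28 in the hippocampus and at 8.03, 8.21 and 7.86 in the cerebellum, a 4.09-fold difference, and the fractalkine receptor *Cx3cr1* differed 2.74-fold. Both sets of arrays were separate, but the number of microglial calls fell to between 3 and 7 when single arrays were left out. Of 13 myelin genes, 2 were called (15.4%, against 27.9% of all genes tested), *Mobp* and *Mog*, both higher in the cerebellum. The list median was 0.10, *Mog* was called in only 1 of the 6 fits that left out an array, and *Mbp* was not called. None of 8 endothelial genes was called by limma at the adjusted threshold, with differences from -0.54 to 0.62. Housekeeping genes gave 0 of 10 calls, with differences from -0.63 to 0.25, and ribosomal protein genes 1 of 78 (*Rpl3l*, a muscle paralog).

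Genes that neighbouring tissue could contribute were read on the same arrays. Of 12 brainstem genes 9 were tested and 7 were called higher in the cerebellum, with a median of 4.79, or 3.58 at their bounds. *Hoxa3* and *Hoxc4* were not called. The count and median depend on how dim genes are treated, and other processing gave as few as 1 call and a median as low as 0.46. *Hoxb5*, a positional factor of the caudal hindbrain and spinal cord, had values of 10.52, 10.91 and 8.64 in the cerebellum against 1.95, 2.02 and 1.85 in the hippocampus, at least 46.7-fold, and *Hoxb2* of 9.55, 9.80 and 8.60 against 2.05, 2.12 and 1.95, at least 28.7-fold. *Hoxa5* was more uneven, at 7.94, 8.34 and 5.17 in the cerebellum. Cerebellum replicate 3 had the lowest value for each of these 3 genes. *Slc6a2*, the noradrenaline transporter, behaved otherwise, at 8.56, 8.68 and 9.37 against 2.01, 2.05 and 1.91 (at least 21.0-fold), and *Tph2*, the tryptophan hydroxylase of serotonergic neurons, was at 8.87, 9.66 and 8.91 against 5.70, 5.74 and 4.78. *Dbh*, which makes noradrenaline, differed by 3.58 ± 0.31. Over the whole brainstem list the log2 of the summed signal was 12.12, 12.33 and 11.30 in the cerebellum and 8.48 to 9.15 in the hippocampus. Among 38 genes of the *Hox* clusters 13 were tested, all above background on every cerebellum array and 3 of them on every hippocampus array. Of the 13, 9 were called higher in the cerebellum, and not one of these 9 was well above background in the hippocampus. Genes tested only for their cerebellum signal could hardly be called the other way, so the direction of this count adds little. Other processing gave 0 to 10 calls and a median as low as 0.43. The part of brainstem RNA in the differences given above was not tested.

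For thalamus, 5 of 10 genes were called higher in the cerebellum, among them *Calb2* (2.84 ± 0.50), *Rora* (2.52 ± 0.18) and *Tcf7l2* (1.57 ± 0.31), of which *Rora* and *Calb2* are also genes of Purkinje and granule neurons. Of 10 choroid plexus genes tested, 4 were called (40.0%, against 27.9% of all genes tested), all higher in the hippocampus. Among them *Ttr*, its transthyretin, was at 13.52, 14.66 and 14.56 against 12.30, 12.46 and 12.96. The log2 of the summed choroid plexus signal was 16.36 to 17.05 in the hippocampus and at most 16.16 in the cerebellum. The striatal dopamine receptor *Drd1*, which dentate granule neurons also express, was 8.02-fold higher in the hippocampus, and *Rgs9* differed by -1.70 ± 0.22. *Drd2* was at 8.36, 8.53 and 6.62 in the cerebellum against 6.64, 6.01 and 6.66 in the hippocampus and was not called, and the values of the tissues overlap. Of 4 blood genes, *Hba-a1* (0.72 ± 0.23) and *Alas2* (1.24 ± 0.35) were called higher in the cerebellum, and neither was called in every fit without 1 array. The part of these tissues in the results was not tested.

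Activity-regulated genes were mostly higher in the hippocampus. Of 16 immediate early genes tested, 13 were called higher there and 2, *Ier2* (1.12 ± 0.20) and *Dusp1* (0.90 ± 0.20), in the cerebellum, with a median of -1.87. *Egr3*, a zinc finger factor induced by synaptic activity, was at 11.45, 11.75 and 11.18 against 3.99, 5.05 and 5.99, with 2 of 3 cerebellum arrays above background (-6.45 ± 0.44). Its other probe, dimmer, differed by -1.90. *Egr2* (-2.94 ± 0.45) and *Nr4a2* (-2.82 ± 0.30) followed, and *Bdnf*, the neurotrophin, was at 11.71, 11.68 and 11.80 against 9.57, 9.48 and 9.62, or 4.51-fold. *Arc* (-1.46 ± 0.26) and *Egr1* (-1.57 ± 0.26) differed less, and *Fos* was not called. *Dusp1* was not called without cerebellum replicate 2, and *Fosb* was called in only 1 of the 6 fits that left out an array.

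**Figure D4:**
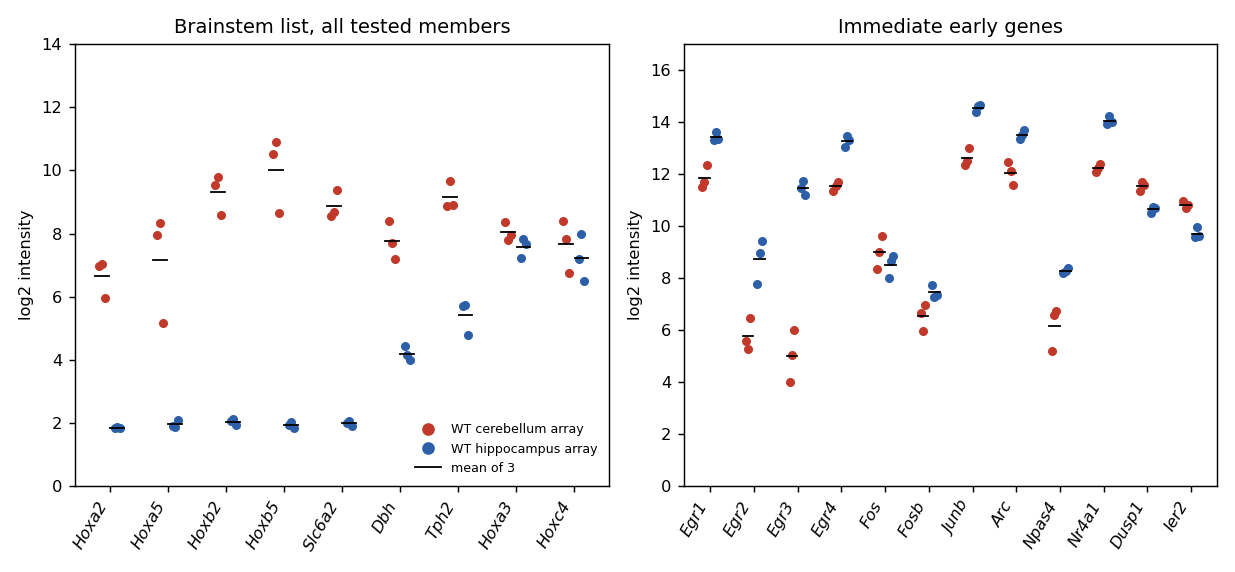
Log2 intensity on each WT array (points; black lines are means of 3) for the 9 tested brainstem genes on the left and 12 immediate early genes on the right. *Hoxb2*, *Hoxb5* and *Slc6a2* sit near 2 on every hippocampus array, while *Hoxa3* and *Hoxc4* were not called. *Egr3* shows the widest gap among the immediate early genes.

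Transmitter systems divided between paralogs. Of the vesicular glutamate transporters, *Slc17a7* was higher in the hippocampus, at 13.37, 12.76 and 12.58 against 10.41, 9.95 and 8.75 (9.19-fold), and *Slc17a6*, found in deep nuclei and brainstem, was higher in the cerebellum at 12.53, 12.70 and 12.01 against 10.66, 10.89 and 8.36 (5.45-fold). The groups stayed apart for both. *Slc32a1*, the vesicular GABA transporter, was higher in the cerebellum by 1.24 ± 0.22 and *Slc18a2*, which loads monoamines, by 2.61 ± 0.25. Neuropeptide genes known from forebrain interneurons were higher in the hippocampus for 7 of 12 tested, led by *Cck* (-2.77 ± 0.24), *Vip* (-2.68 ± 0.29) and *Cort* (-2.55 ± 0.33) and including *Npy*, *Sst* and *Pdyn*. *Penk*, an opioid precursor also made by Golgi cells, was at 15.47, 15.99 and 16.21 in the cerebellum against 13.22, 13.58 and 14.23 in the hippocampus, and *Gal* and *Adcyap1* were higher in the cerebellum as well.

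GABA-A receptor subunits gave 3 calls toward the cerebellum and 5 toward the hippocampus among 14 tested. Against *Gabra6* and *Gabrd* stood *Gabra5*, the subunit of extrasynaptic receptors in CA1, at 13.22, 13.04 and 13.01 in the hippocampus and 9.24, 9.39 and 8.47 in the cerebellum (16.7-fold). Ionotropic glutamate receptors gave 6 calls each way among 17 tested. The NMDA receptor subunit *Grin2c* was higher in the cerebellum at 14.88, 14.73 and 14.35 against 12.75, 12.70 and 12.40, whereas *Grin2b* was higher in the hippocampus at 10.78, 9.71 and 10.88 against 7.82, 7.60 and 6.90. *Grin3b* (4.53 ± 0.26) and *Gria4* (1.56 ± 0.40) were higher in the cerebellum, and *Gria2* (-2.18 ± 0.21), *Gria3* (-1.63 ± 0.30) and *Grik5* (-2.01 ± 0.21) in the hippocampus. *Grin1*, the subunit that all NMDA receptors share, was not called. For metabotropic receptors, *Grm4*, which granule neurons carry on parallel fibre terminals, was at least 17.7-fold higher in the cerebellum, and *Grm5* was 6.61-fold higher in the hippocampus.

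Second messenger genes of plasticity lay mainly on the hippocampal side. *Camk2a*, the alpha subunit of calcium and calmodulin-dependent kinase II, was at 17.05, 17.14 and 16.67 in the hippocampus and 12.78, 12.64 and 11.88 in the cerebellum, 22.9-fold. *Nrgn*, the calmodulin store neurogranin, was at 17.72, 17.42 and 17.30 against 13.37, 13.54 and 13.47, or 16.2-fold. In all, 10 members of this list of 20 were called higher in the hippocampus and 2 in the cerebellum, the kinases *Camk2d* (2.06 ± 0.20) and *Camk4* (0.92 ± 0.22), of which *Camk4* was not called without hippocampus replicate 3. *Camk2b* was called higher in the hippocampus (-0.86 ± 0.19), but the mean of its probes differed by 0.55 and was not called. Phospholipase C beta split between *Plcb4*, the Purkinje cell form (3.23 ± 0.28), and *Plcb1* (-1.68 ± 0.32), and the calmodulin-dependent phosphodiesterases between *Pde1c* (2.66 ± 0.23) and *Pde1a* (-3.72 ± 0.27). Regulators of G protein signalling divided in the same manner, with *Rgs8* at 2.28 ± 0.26 against *Rgs14*, *Rgs19* (-1.77 ± 0.22) and *Rgs9*.

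Ion channel families also held calls in both directions. Of 75 potassium channel genes tested, a list defined by symbol that also holds the noncoding RNA *Kcnq1ot1*, 19 were called higher in the cerebellum and 24 in the hippocampus. *Kcng4* (3.97 ± 0.31), *Kcnj12* (3.66 ± 0.29) and the sodium-activated channel *Kcnt1* (2.48 ± 0.23) led in the cerebellum, and *Kcnc1* (2.15 ± 0.23), which allows fast firing, was higher there too. *Kcnj4*, an inward rectifier, was at 14.25, 14.38 and 14.28 in the hippocampus against 8.57, 8.64 and 9.11, 46.3-fold. *Kcnip2* (-5.26 ± 0.45) and *Kcnh3* (at least 28.9-fold) were higher in the hippocampus too, as was the modulatory subunit *Kcnv1*, which was not well above background on any cerebellum array. Voltage-gated calcium channel genes, a list also defined by symbol, gave 5 calls toward the cerebellum and 12 toward the hippocampus among 23. This list holds auxiliary subunit genes such as *Cacnb4* and *Cacna2d1* and the *Cacng* genes as well. The low-threshold channel *Cacna1g* was at 13.62, 13.80 and 14.30 in the cerebellum against 10.89, 11.47 and 11.79 in the hippocampus, while its paralog *Cacna1h* was at 7.22, 7.52 and 6.54 against 11.43, 10.92 and 10.58. These 2 genes of one channel type therefore had opposite calls. *Cacna1a*, the P/Q-type channel, was not called. Of 9 sodium channel genes tested, 3 were called (33.3%, against 27.9% of all genes tested), all toward the hippocampus. The beta subunit *Scn3b* differed most (-3.24 ± 0.26). Fits without 1 array gave 1 to 3 such calls, and that of *Scn3a* was lost when cerebellum replicate 1 or any 1 of the 3 hippocampus arrays was left out.

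**Figure D5:**
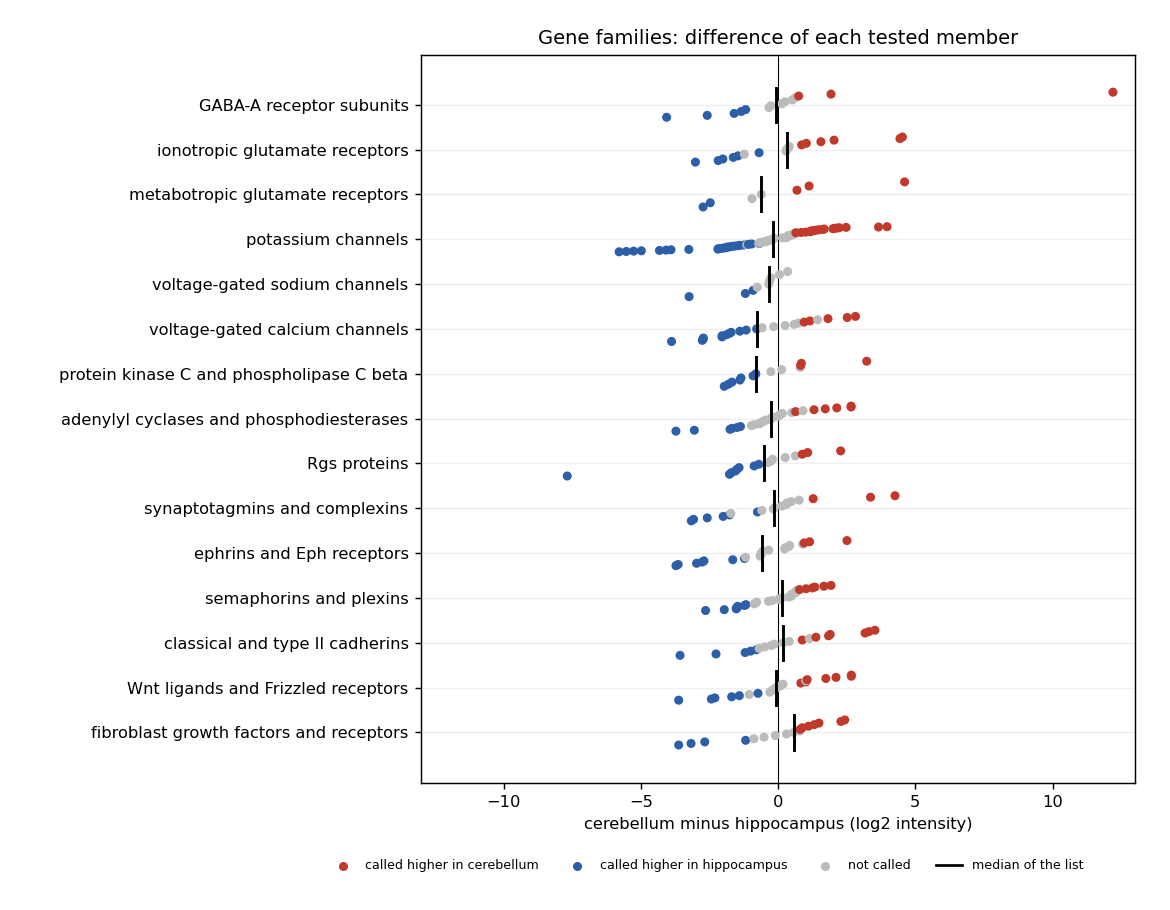
Difference of each tested member of 15 gene families, cerebellum minus hippocampus on the log2 scale (points, coloured by the limma call; vertical bars are family medians). Of the families drawn, 14 hold members called in both directions, the exception being the voltage-gated sodium channels, and *Gabra6* is the point farthest to the right.

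Paralogs had opposite calls in the LIM homeobox and NeuroD families of transcription factors. Among LIM homeobox genes, *Lhx1* and *Lhx5* were higher in the cerebellum and *Lhx2* and *Lhx6* in the hippocampus. Among NeuroD factors, *Neurod1* was higher in the cerebellum at 11.13, 11.36 and 12.06 against 9.34, 9.28 and 8.77, and *Neurod6* in the hippocampus at 13.28, 13.41 and 12.69 against 7.72, 7.09 and 7.32, with *Neurod2* (-1.14 ± 0.26) on the same side as *Neurod6*. In the cerebellin and C1q-like family, *Cbln1* and *Cbln3* stood against *C1ql2* and *C1ql3* (-2.96 ± 0.24), and *Cbln2*, *Cbln4* and *C1ql1* were not called.

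Genes of adhesion, guidance and secreted signals showed smaller differences, again in both directions. Of 22 ephrin and Eph genes, 45.5% were called, against 27.9% of all genes tested, and 12 were not. The 7 higher in the hippocampus included *Epha7* (-3.72 ± 0.30), *Epha6* (-2.97 ± 0.28) and *Epha4*, at 14.93, 14.95 and 14.88 against 11.25, 11.45 and 11.14. The 3 higher in the cerebellum included *Epha8* (2.51 ± 0.35, with 1 of 3 hippocampus arrays above background). Of 31 semaphorin, plexin and neuropilin genes, 45.2% were called, against 27.9% of all genes tested. Toward the cerebellum 6 were called, with *Sema3a* first (1.93 ± 0.20), and toward the hippocampus 8, with *Nrp1*, a receptor of *Sema3a*, first (-2.64 ± 0.21). Among 19 cadherins tested, *Cdh1* (3.53 ± 0.26), *Cdh15* (3.31 ± 0.21) and *Cdh7* (3.17 ± 0.35) were higher in the cerebellum, and *Cdh9*, which acts at mossy fibre synapses, was at least 7.55-fold higher in the hippocampus. *Wnt7a* (2.67 ± 0.32) and *Fzd1* (2.67 ± 0.21) were higher in the cerebellum and *Wnt2* (-3.62 ± 0.32) in the hippocampus. Among fibroblast growth factors, *Fgf7* (2.43 ± 0.48) and *Fgf22* (2.29 ± 0.35) were higher in the cerebellum and *Fgf13* (-3.17 ± 0.28) and *Fgf10* (-2.67 ± 0.25) in the hippocampus. Of the synaptotagmins, the calcium sensors of release, *Syt2* was higher in the cerebellum (4.26 ± 0.58, with 1 of 3 hippocampus arrays above background) and *Syt1* in the hippocampus (-2.0 ± 0.22). Of 9 serotonin receptors tested 3 were called (33.3%, against 27.9% of all genes tested), all higher in the hippocampus, led by *Htr1a* (-2.75 ± 0.28). Other processing gave 1 to 4 such calls. The dopamine receptor *Drd5* (-3.50 ± 0.24) and the nicotinic subunit *Chrna7* (-2.99 ± 0.28) were higher in the hippocampus, and *Chrna4* (1.81 ± 0.26) and *Drd4* (1.56 ± 0.23) in the cerebellum. Neurexin genes were not called, and of the neuroligins and *Lrrtm* genes *Lrrtm3* was higher in the cerebellum and *Lrrtm1*, *Lrrtm4* and *Nlgn1* in the hippocampus. Of these, *Lrrtm3* was not called without hippocampus replicate 1, *Lrrtm4* without cerebellum replicate 1 or hippocampus replicates 1 or 3, and *Nlgn1* without cerebellum replicates 1 or 2 or hippocampus replicates 2 or 3.

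Detection on the arrays also differed. The dimmest log2 intensity counted as well above background was 3.24 to 4.04 on the cerebellum arrays and 4.28 to 4.83 on the hippocampus arrays. The part of this unequal limit in the counts that follow was not tested. Among called genes, 244 were well above background on all 3 cerebellum arrays and on no hippocampus array, and 83 the reverse, while the cerebellum arrays also had the larger share of spots above background. Of 2190 further probes of called genes that were above background throughout at least 1 tissue, 89.9% differed in the same direction as the probe used.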

How the data were processed

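RNA of entire cerebellum and entire hippocampus, 3 WT arrays each, was hybridised with one dye to Agilent mouse arrays. The authors deposited, per array, linear intensities of the spots, which Feature Extraction 10.7.3.1 had corrected for background, with probe positions in mm9. They also deposited log2 values, filtered and quantile normalized with Agi4x44PreProcess per the study's methods, with the quantiles set within each tissue. Those values served as an alternative only.

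Here, controls and outlier-flagged spots were removed, processed intensities were taken as log2, quantile normalized over the 6 arrays, and averaged per probe. Gene names came from the cerebellum files for both tissues, since 4691 spots were named differently in the older hippocampus annotation. The reference table (GRCm38.p6) held 17992 of 21149 names as symbols, accessions updated 1664, earlier symbols 316, and 1177 stayed as deposited. The 6283 probes without a gene name were tested apart. The brightest probe stood for a gene, and a gene was tested where every array of 1 tissue or both had it well above background, with at least 2 values in each. Linear models were fitted with limma 3.58.1 in R 4.3.3, with Benjamini-Hochberg adjustment over all genes tested, and were tested on simulated data. For 3 arrays against 3, an exact two-sided permutation test of a single value cannot go below 0.1. The methods give 3 mice per genotype, and the p-values cover the spread between these samples.

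A gene not well above background on any array of a tissue has only a bound there: "at least N-fold" sets the mean of the brighter tissue against the mean, over arrays of the dimmer, of either the gene's signal or the dimmest signal counted as well above background, whichever is higher. All fold changes are on the normalized scale, and differences are cerebellum minus hippocampus with the SE of the fit.

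The text names the 4 check genes, in each direction the 12 largest differences among called genes measured on all arrays and the 8 largest bounds, and the largest calls, small lists and opposed paralogs of 47 gene lists. Some members of these lists are counted but not reported here by name. The tissues, genes and lists were chosen with earlier results of these data known. Other background corrections, normalizations, filters, thresholds and probe rules, a block on the replicate number, and fits without 1 array were tried. Replicates of one number share a slide. Deviations from the tissue means correlated at 0.25, -0.2 and 0.0773 for numbers 1 to 3, and at -0.297 to 0.187 between unlike numbers. With means of 3 arrays these values cannot decide pairing. The labels do not give it either, so the numbers were not taken as pairs.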

Additional observations from a re-analysis of the deposited data

Results flagged for a closer look

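Probes that carry no gene name in the files were left out of the comparison above, and some of them differed between the tissues. Of 2308 such probes tested by limma, 469 were called at an adjusted p under 0.05, 329 higher in the WT cerebellum and 140 higher in the WT hippocampus. They are set apart because they hold a difference in data outside the named genes, and which transcripts they measure was not tested.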

How the results depend on the processing

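Other background corrections gave 4356 calls with normexp, of which 3846 were among the 4366 above, and 4382 with subtraction, of which 3881 were, and 3823 genes were called when every array had to be above background and 3987 with no filter. With the replicate block, which is also the slide, 4306 genes were called, 4009 of them shared with the unblocked fit, and the calls split into 2248 and 2058. Leaving out single arrays gave 3127 to 4721 calls, 1582 to 2528 higher in the cerebellum and 1516 to 2193 higher in the hippocampus, and 2643 genes were called each time. The authors' log2 values gave 4120 genes higher in the cerebellum and 1191 higher in the hippocampus among 14251 tested, and the 75th percentile gave 2621 and 1820, with medians of all genes at 0.31 and 0.13. An adjusted p under 0.01 left 2502 genes, 1272 and 1230 by direction. Of 385 called genes in the lists or named above, 277 kept their call and direction in every alternative that tested them. With the mean of a gene's probes the direction turned for *Camk2b* (0.55), *Cacna1s* (-0.05) and *Slc17a8* (-0.01), which were then not called, and for *Grin2a* (-1.11) and *Hoxb6* (2.84), which were then called and are not called with the brightest probe. Probes of these genes differ in direction; the cause was not tested. Among called genes named above, another probe above background on all arrays also had the opposite sign for *Kcnc1* (-0.44), *Chrna4* (-0.23), *Mog* (-0.25), *Zic4* (-0.13), *Gria3* (0.12) and *Fgf13* (0.43). Dim genes have only bounds, and the fitted size of their difference depends on the floor of the scanner's signal.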
